A study of Mus musculus with 6 samples.

Results

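Isg15, Ifit3, Ifit3b, Ifi44 and Ifi205 are genes that cells switch on when interferon reaches them. They were taken by their gene symbols from the deposited gene table and make up 5 of its 109 genes. The cells were bone marrow macrophages (BMMs) of 6-week-old C57BL/6 mice, grown in macrophage colony-stimulating factor and then kept for 5 days with 30 ng/ml RANKL, the cytokine that turns BMMs into osteoclasts. RNA sequencing gave 3 libraries of cells without mogrol (control cells) and 3 of cells that also received 20 μM mogrol (mogrol-treated cells). Mogrol is the sugar-free core of the mogrosides, the sweet compounds of the fruit of Siraitia grosvenorii. Every library came from RANKL-treated cells, and cells without RANKL were not analysed here. The labels do not say whether the 3 libraries of a group came from separate cultures or mice, so p-values measure only the spread between these libraries, which may be technical.

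The table holds only genes that the authors had selected on these same 6 libraries, with cut-offs of 0.05 for the adjusted p-value and 1 for the size of the log2 fold change. That the 5 genes differ between the groups was therefore fixed by their presence in the table. Their levels and fold changes are a description, and the p-values are not independent evidence. The library totals lay between 18097882 and 18652439 reads. No library repeats another, since the chi-square between libraries of one group was 5.24 to 19.6 times its degrees of freedom over the 109 genes.

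Type I interferons bind a receptor that activates the kinases JAK1 and TYK2. A complex of transcription factors then enters the nucleus and binds the interferon-stimulated response element (ISRE) before its target genes. In osteoclast precursors RANKL is known to induce interferon-β, which in turn restrains osteoclast formation. Isg15 encodes a ubiquitin-like protein that is attached to other proteins. Ifit3 and Ifit3b encode antiviral proteins built of tetratricopeptide repeats. Ifi205 belongs to the nuclear DNA-binding family of interferon-activated genes on chromosome 1, and Ifi44 encodes a cytoplasmic protein induced by interferon.

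All 5 genes have a promoter window in the RefSeq set on GRCm38.p6, a stretch of 300 bases that takes in the gene start. The windows were searched on both strands for the core of the ISRE, GAAANNGAAA, which contains the shorter IRF element AANNGAAA. The core stood in the windows of Isg15, Ifit3, Ifit3b and Ifi205, so in 4 of 5, against 3.44% of all 32851 windows. The shorter element stood in all 5 and in 23.9% of all windows. The 5 stretches are shown because they hold these matches, which are in capitals: the core for the first 3 and the last, and the IRF element for Ifi44. Each is written 5′ to 3′ in the direction of the gene.
Isg15: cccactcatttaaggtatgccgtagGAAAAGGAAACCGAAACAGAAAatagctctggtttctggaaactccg
Ifit3: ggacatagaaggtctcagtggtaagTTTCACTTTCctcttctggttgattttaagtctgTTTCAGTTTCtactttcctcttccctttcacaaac
Ifit3b: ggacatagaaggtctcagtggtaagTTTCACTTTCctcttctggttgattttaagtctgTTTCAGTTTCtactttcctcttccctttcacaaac
Ifi44: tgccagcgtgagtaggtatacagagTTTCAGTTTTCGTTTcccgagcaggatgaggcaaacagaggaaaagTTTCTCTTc
Ifi205: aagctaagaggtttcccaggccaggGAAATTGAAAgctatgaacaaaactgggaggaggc

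The stretch of Isg15 lies on the minus strand at chr4:156200850-156200921 and holds 3 overlapping cores, the first beginning 78 bases before the start. The stretch of Ifit3 lies at chr19:34583348-34583441 and that of Ifit3b at chr19:34607744-34607837, both on the plus strand. Their 2 cores read on the opposite strand, and the stretches printed are identical. They are part of a run of 169 bases that both windows share, so these windows are not separate examples. The stretch of Ifi205 lies on the minus strand at chr1:174031855-174031914, and a second core of this gene begins 23 bases past the start and is not printed. The stretch of Ifi44 lies on the minus strand at chr3:151749911-151749990 and has 3 IRF elements, of which the first and second overlap. They lie before the RefSeq start used here. The deposited coordinates, shared by GENCODE M21, put the start at 151749960, inside this stretch, so not all 3 lie before that start. The GAS element TTCNNNGAA, known from the response to interferon-γ, was in no window of the 5 genes and in 8.3% of all windows. The AP-1 element TGANTCA was in the windows of Ifit3 and Ifit3b alone among the 5, and in 7.81% of all. A match is a run of letters and does not show that a factor was bound.

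**Figure D1:**
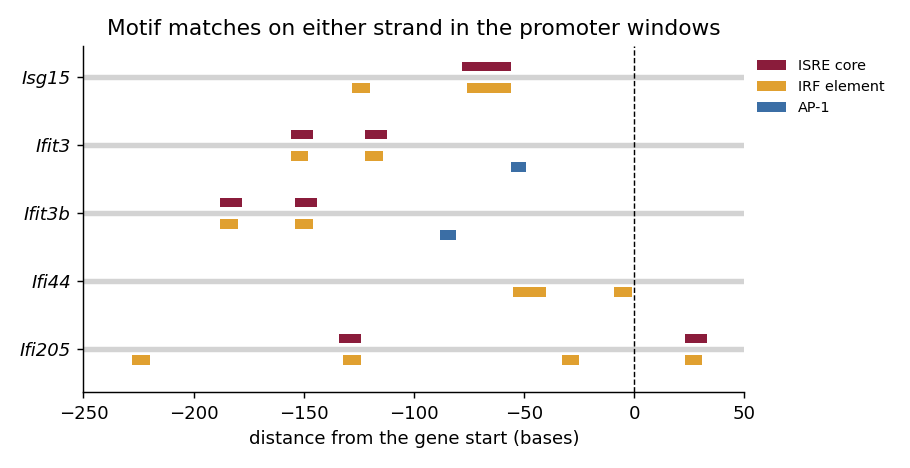
Motif matches in the promoter windows of the 5 genes, by distance in bases from the RefSeq gene start (dashed line), for the ISRE core, the IRF element and the AP-1 element on either strand. Isg15, Ifit3, Ifit3b and Ifi205 hold the ISRE core, Ifi44 holds 3 IRF elements, and the layouts of Ifit3 and Ifit3b are shifted copies of each other.

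In mogrol-treated cells all 5 genes were lower, and no mogrol-treated library reached the level of any control library. Together they took 36.6 ± 7.97 RPM (reads scaled by the library total) in control cells and 12.7 ± 1.47 RPM in mogrol-treated cells (SD, n = 3), which is 34.7% of the control level. In bulk RNA, fewer cells of a type and less RNA per cell cannot be told apart. With edgeR's quasi-likelihood test, run on all 109 genes with Benjamini-Hochberg adjustment and giving the standard errors (SE) below, 5 of 5 passed an adjusted p-value under 0.05 in the lower direction. Among all genes listed 58.7% did so, and the same 58.7% had all mogrol-treated libraries below all control libraries. The median log2 fold change was -1.51 for the 5 genes, -1.41 for the 64 lower genes and -1.09 for the whole table.

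Isg15 (ENSMUSG00000035692, chromosome 4, 156199455 to 156200796) was covered by 273, 151 and 224 reads in the control libraries, against 78, 66 and 82 after mogrol. Control replicate 2 stood below the other control libraries, and the mogrol-treated libraries lay close together. The level went from 11.7 ± 3.36 to 4.11 ± 0.419 RPM (SD, n = 3), or -1.51 on the log2 scale (SE 0.18, Benjamini-Hochberg adjusted p = 1.3e-15 by edgeR). It is a small gene of 2 exon blocks, and GENCODE M21 gives it slightly longer exons than the deposited length of 703 bases.

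Ifit3 (ENSMUSG00000074896, chromosome 19, 34583531 to 34588731) was covered by 247, 171 and 195 reads in the control libraries, against 70, 70 and 77 after mogrol. The mogrol-treated libraries were nearly equal, and control replicate 2 was again the lowest control library. The level went from 11.1 ± 2.11 to 3.95 ± 0.215 RPM (SD, n = 3), or -1.49 on the log2 scale (SE 0.183, Benjamini-Hochberg adjusted p = 7.5e-15 by edgeR).

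Ifit3b (ENSMUSG00000062488, chromosome 19, 34607970 to 34613401) begins 19238 bases beyond the end of Ifit3, with Ifit1bl1 between them. It was covered by 79, 53 and 71 reads in the control libraries, against 24, 21 and 26 after mogrol. Its level went from 3.67 ± 0.739 to 1.29 ± 0.128 RPM (SD, n = 3), or -1.50 on the log2 scale (SE 0.269, Benjamini-Hochberg adjusted p = 4.5e-08 by edgeR). The libraries kept the order seen for Isg15 in both groups.

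The transcripts of Ifit3 and Ifit3b are partly identical, so their reads can be hard to tell apart. Of the stretches of 100 bases in the longest transcript of each, 31.7% of those of Ifit3 occur in Ifit3b and 27.4% of those of Ifit3b occur in Ifit3. How reads with more than one possible origin were counted is not given in the sources used here, so the separate levels are uncertain. Ifit3b held 23.1% to 26.7% of the reads of the pair in the 6 libraries. With the reads of both summed, the log2 fold change was -1.49 (SE 0.165), an alternative added after the data were seen. For Isg15, Ifi44 and Ifi205 no stretch of 100 bases occurred in another gene's transcript, and no annotated gene overlaps any of the 5.

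Ifi44 (ENSMUSG00000028037, chromosome 3, 151730922 to 151749960) was covered by 174, 115 and 157 reads in the control libraries, against 65, 38 and 51 after mogrol. Replicate 2 was the lowest library of each group, and the mogrol-treated libraries spread more than those of Isg15 or Ifit3. The level went from 8.06 ± 1.69 to 2.8 ± 0.707 RPM (SD, n = 3), or -1.52 on the log2 scale (SE 0.204, Benjamini-Hochberg adjusted p = 7.5e-13 by edgeR).

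Ifi205 (ENSMUSG00000054203, chromosome 1, 174011998 to 174031810) was the least abundant, with 37, 32 and 45 reads in the control libraries against 12, 4 and 14 after mogrol. Mogrol replicate 2, with 4 reads, stood well below the other mogrol-treated libraries. The level went from 2.06 ± 0.382 to 0.544 ± 0.285 RPM (SD, n = 3), or -1.90 on the log2 scale (SE 0.35, Benjamini-Hochberg adjusted p = 9.2e-08 by edgeR). Without mogrol replicate 2 the log2 fold change was -1.54, and those of the other 4 genes were then -1.472 to -1.355.

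Levels per length, in FPKM with the deposited gene lengths, put the genes in one order in both groups. In control cells Isg15 had 16.7 ± 4.78 FPKM, Ifit3 6.34 ± 1.21, Ifit3b 1.83 ± 0.369, Ifi44 1.32 ± 0.272 and Ifi205 0.493 ± 0.0907 (SD, n = 3). Among neighbours in this order, the control libraries of Ifit3b (1.42 to 2.13 FPKM) and Ifi44 (1.01 to 1.53 FPKM) overlapped, and the other neighbours did not. The order of this pair rests on the deposited length of 6129 bases for Ifi44, whose longest transcript has 4064 bases. By RPM Ifi44 was the higher, at 8.06 against 3.67 in control cells, and the count of Ifit3b is uncertain. In mogrol-treated cells Isg15 had 5.85 ± 0.595 FPKM and Ifi205 0.13 ± 0.07 (SD, n = 3), and no neighbours overlapped. Ifit3b and Ifi44 nearly did, with the lowest library of Ifit3b at 0.58 FPKM and the highest of Ifi44 at 0.57 FPKM. By mean RPM over the 6 libraries Isg15 ranked 62 and Ifi205 ranked 104 of the 109 genes, so all 5 lay in the lower part of the table.

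**Figure D2:**
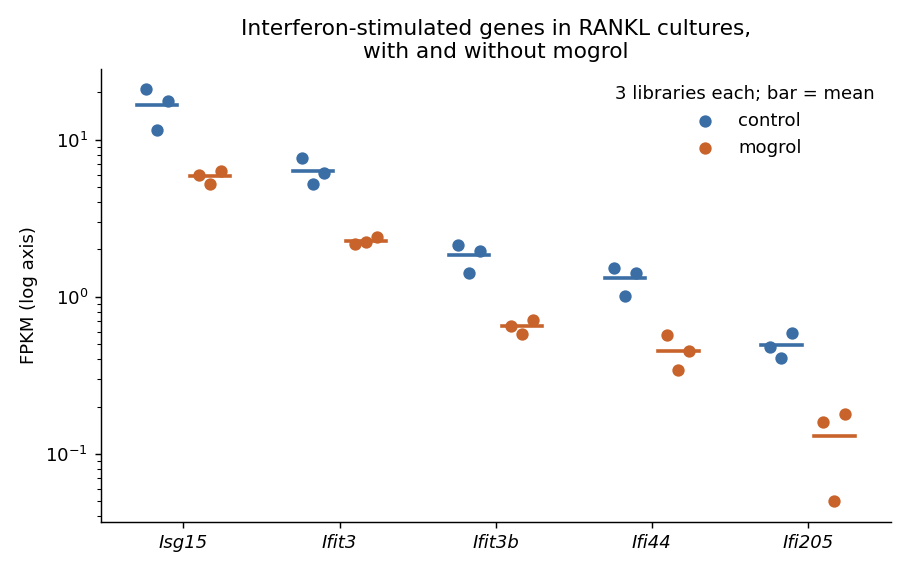
FPKM of the 5 genes on a log axis, with 1 point per library (3 control, 3 mogrol-treated) and a bar at each group mean. Each gene's mogrol-treated libraries lie below its control libraries, from 5.19 to 6.35 FPKM against 11.52 to 20.97 FPKM for Isg15, and the lowest point is Ifi205 in mogrol replicate 2 at 0.05 FPKM.

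Whether the genes differed from each other in their change was examined with the ratio of the reads of 2 genes within a library, which does not depend on library size. For Isg15, Ifit3, Ifit3b and Ifi44 the log2 ratio of any pair differed between the groups by -0.0013 to 0.0607. The narrowest interval was that of Isg15 to Ifit3b, a difference of 0.0041 with a 95% interval of -0.225 to 0.234 from the spread of the libraries. The widest among these 4 genes was that of Ifit3 to Ifi44, 0.0607 with an interval of -0.597 to 0.718. The log2 ratio of each of the other 4 genes to Ifi205 was higher in mogrol-treated cells by 0.492 to 0.553, and each of these intervals included 0, the widest running from -0.934 to 2.04. Without mogrol replicate 2, the library with 4 reads of Ifi205, these 4 differences were 0.0485 to 0.163. Two-sided exact permutation tests of the 10 pairs gave p-values of 0.3 to 1, and 1 for each pair after Benjamini-Hochberg adjustment. With 3 libraries against 3 such a test cannot go below 0.1, so a difference between genes could not have passed, and none of the 10 pairs separated the groups.

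The libraries of one group were not equally high in these genes. Control replicate 2 was the lowest control library for 5 of 5 genes. Among all 109 genes it was the lowest for 38.5%, and among the 64 lower genes for 25%. Mogrol replicate 2 was the lowest mogrol-treated library for Isg15, Ifit3b, Ifi44 and Ifi205, and it was the lowest for 42.2% of all genes. Among control libraries the highest level of Isg15 was 1.82 times the lowest, and for the other 4 genes this ratio was 1.44 to 1.52. The variance between control libraries was 17.7 times the mean read count for Isg15, 7.38 times for Ifit3, 6.49 times for Ifi44, 2.74 times for Ifit3b and 1.3 times for Ifi205, where counting alone gives about 1. In mogrol-treated cells it was 3.29 times for Ifi44, 2.75 times for Ifi205, 0.785 times for Isg15, 0.232 times for Ifit3b and 0.216 times for Ifit3. The ratio was thus lower than in control cells for 4 of the genes and higher for Ifi205. At an equal relative spread this ratio falls with the read count, which was lower after mogrol. The coefficient of variation (SD over mean) rose from 20.9% to 25.3% for Ifi44 and from 18.5% to 52.5% for Ifi205. It fell from 28.7% to 10.2% for Isg15, from 19.0% to 5.45% for Ifit3 and from 20.15% to 9.88% for Ifit3b.

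**Figure D3:**
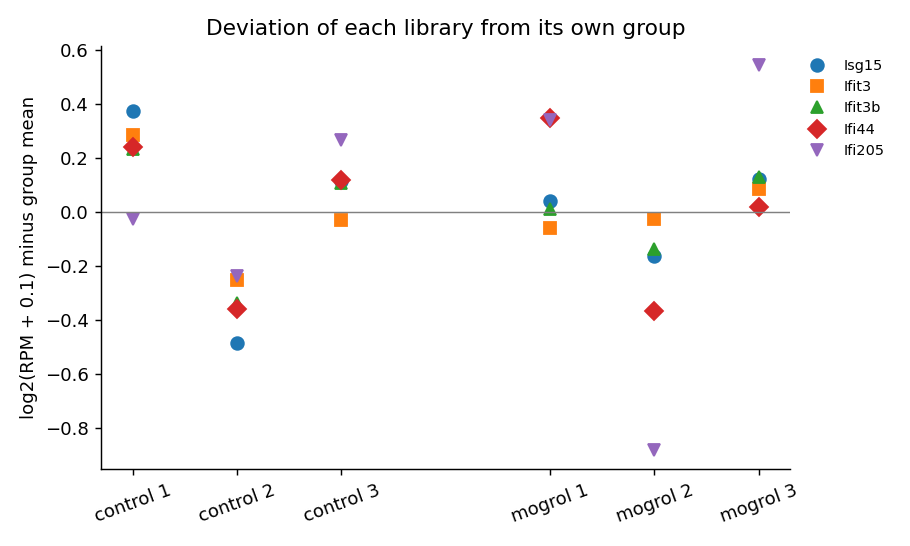
Deviation of log2(RPM + 0.1) from the mean of the library's own group, for the 5 genes (symbols) in each of the 6 libraries. All 5 genes lie below 0 in control replicate 2, from -0.48 for Isg15 to -0.24 for Ifi205, and all lie below 0 in mogrol replicate 2, where Ifi205 reaches -0.88.

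With the group mean taken out, the level of each gene was correlated over the 6 libraries with the mean of the other 4. Pearson's r was 0.896 for Ifit3b, 0.864 for Ifi44, 0.839 for Isg15, 0.627 for Ifit3 and 0.561 for Ifi205. These values describe 6 libraries that share their depth and handling. Of the other 104 genes, 31 had an r with the mean of the 5 above the lowest of these, and their median was 0.0453. The 5 highest were Cd300a (0.949), Fcgr3 (0.931), Aspn (0.93), Fgr (0.907) and Dok2 (0.891). Cd300a and Fcgr3 encode myeloid cell surface receptors, Fgr a Src family kinase and Dok2 an adaptor protein, and all 4 were higher in mogrol-treated cells, with log2 fold changes of 1.41 for Cd300a, 1.22 for Fcgr3, 1.30 for Fgr and 1.30 for Dok2. Aspn, a matrix protein gene, was lower, with a log2 fold change of -1.75. These genes thus varied with the interferon-stimulated genes within the groups, and 4 of 5 differed between the groups in the opposite direction. Among all 109 genes, 45 were higher in mogrol-treated cells. The choice of the 5 was not stable, since 1 to 3 of them were again among the first 5 when 1 library was left out. Their directions are therefore read no further.

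Of 66 further genes of interferon signalling and response that were listed for this comparison, 2 are in the table, Iigp1 and Tgtp2. Both encode interferon-inducible GTPases of the defence against intracellular pathogens, and both were lower in mogrol-treated cells. Iigp1 was covered by 84, 94 and 84 reads in the control libraries, against 22, 22 and 27 after mogrol, or -1.87 on the log2 scale (SE 0.259, Benjamini-Hochberg adjusted p = 3.6e-12 by edgeR). Tgtp2 was covered by 147, 132 and 133 reads in the control libraries, against 56, 42 and 59 after mogrol, or -1.38 on the log2 scale (SE 0.206, Benjamini-Hochberg adjusted p = 9.0e-11 by edgeR). Most of the Tgtp2 transcript occurs in other genes, with 80.4% of the stretches of 100 bases found in Tgtp1 or Gm12185, so its count is uncertain. The control libraries of these genes were closer together than those of the 5, with highest-to-lowest ratios of 1.11 and 1.12. Control replicate 2 was the highest control library for Iigp1, whose r with the mean of the 5 was -0.038, against 0.841 for Tgtp2. With 1 library left out, r ran from -0.89 to 0.462 for Iigp1, so its value was not stable. For Tgtp2 it ran from 0.772 to 0.9945. The other 64 listed genes, among them Irf7, Ifit1, Ifit2, Mx1, Oasl2, Rsad2 and Usp18, are not in the table and were not analysed here. Nothing can be read from the table about their levels.

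The deposited annotation names interferon or virus in a biological process of 12 genes, of which 6 were lower and 6 higher. The whole table held 64 lower and 45 higher genes, so this split is near that of the table. Of the 8 annotated genes that are not among the 5 interferon-stimulated genes, 2 were lower and 6 higher. These directions are a description. The lower genes included Isg15, Ifit3, Ifit3b, Ifi205 and Tgtp2, and Ifi44 has no biological process in the annotation. Cellular response to interferon-β was assigned to Ifit3, Ifit3b, Ifi205 and Tgtp2, all lower. Defence response to virus was assigned to Isg15, Ifit3 and Ifit3b, which were lower, and to the integrin gene Itgax, which was higher. The genes that rose are receptors, surface proteins and a transporter of myeloid or lymphoid cells. Tnfsf4, the gene of the OX40 ligand, had a log2 fold change of 2.32 (SE 0.235), and Spn, which encodes the surface protein CD43, had 1.72 (SE 0.126). The endosomal RNA receptor gene Tlr13 had 1.27, the lectin gene Clec5a 1.26, Itgax 1.19 and the metal transporter gene Slc11a1 1.14.

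**Figure D4:**
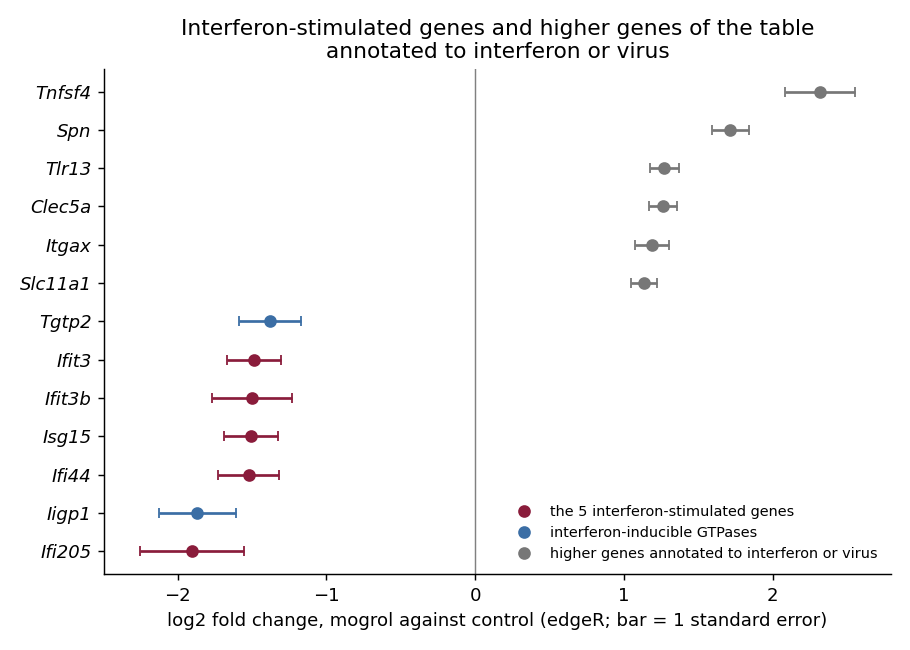
Log2 fold change of mogrol-treated against control cells from edgeR, with bars of 1 standard error, for the 5 interferon-stimulated genes, the GTPase genes Iigp1 and Tgtp2, and the 6 higher genes annotated to interferon or virus. The 5 genes lie between -1.90 and -1.49, and the 6 higher genes lie between 1.14 and 2.32.

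Some marker genes of cell types that such cultures could hold are in the table, which holds only genes selected as changed. Of its 109 genes, 64 were lower and 45 higher in mogrol-treated cells. Of 12 macrophage markers, 6 are in the table and all 6 were higher, with a sum of 225.2 to 281 RPM in control libraries and 599 to 649 RPM in mogrol-treated libraries. Of 13 osteoclast markers, Ctsk and Ckb are in the table and both were lower, from 12507 to 13966 RPM in sum down to 6117 to 6460 RPM. Of 12 stromal markers, 10 are in the table and all 10 were lower, from 1599 to 1658 RPM down to 647 to 706 RPM. Of 9 lymphoid markers, Lat, Gzmc and Gzmd are in the table and were lower, from 32.9 to 38.1 RPM down to 14.5 to 17.5 RPM. None of the 7 markers of plasmacytoid dendritic cells, which make much type I interferon, is in the table. The table tells nothing about the levels of listed markers that are absent from it, so these sums do not describe whole cell types. The paper reported some of the absent osteoclast markers as lower in mogrol-treated cells. The part of these marker shifts in the lower level of the interferon-stimulated genes was not tested.

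The 5 genes were lower under every alternative that kept them. The values moved most with median-of-ratios factors for Isg15, Ifit3, Ifit3b and Ifi44, and for Ifi205 with limma on log2(FPKM + 1), which gave -0.40. With median-of-ratios size factors over the table, which moved the median of all 109 genes up by 0.98, the log2 fold changes lay between -0.93 for Ifi205 and -0.51 for Ifit3. The call for Ifit3b was then lost, at -0.53 where edgeR gave an adjusted p of 0.0694, and the share of lower genes among all called fell from 58.7% to 43.8%. Over the alternatives for Ifit3b the log2 fold change ranged from -1.66 to that value, and the other alternatives kept its call. Size factors back-calculated from the mean normalized counts of the authors moved the median of the 109 genes by -0.0723 and gave the 5 genes a median of -1.57.

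**Figure D5:**
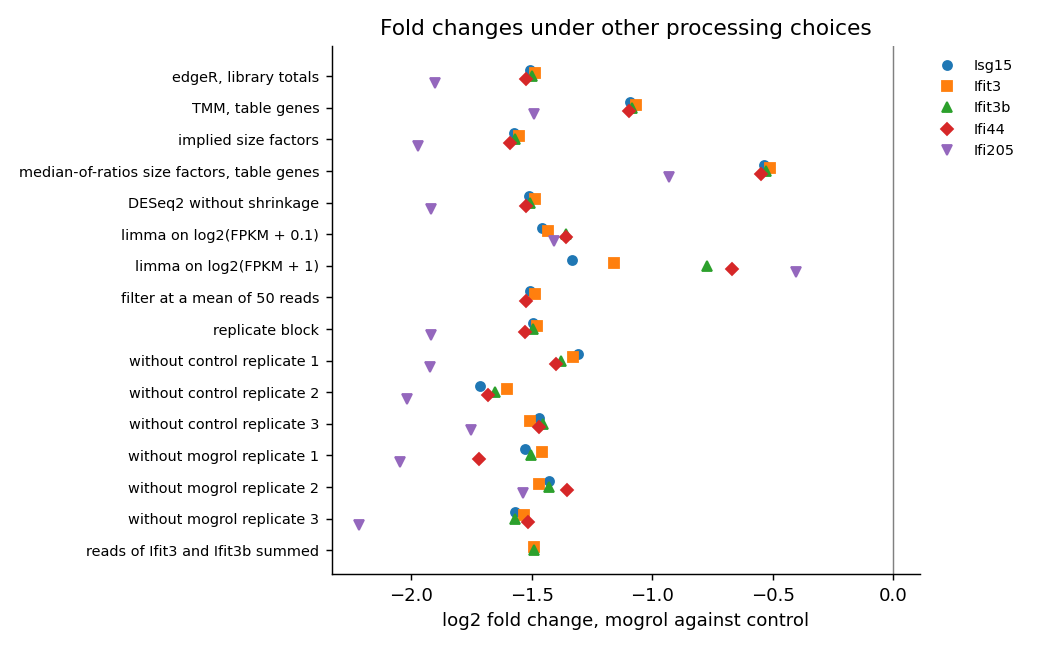
Log2 fold change of the 5 genes (symbols) under each alternative, with the reported edgeR fit in the top line. All points lie below 0, the leave-one-out fits stay between -2.22 and -1.31, and the points nearest to 0 come from median-of-ratios factors over the table and from limma on log2(FPKM + 1), where Ifi205 is at -0.40.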

How the data were processed

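Libraries were made from poly(A)-selected or rRNA-depleted RNA (the labels name both) and the authors aligned the reads with HISAT2. Cutadapt 1.9.1, HISAT2 2.0.1, HTSeq 0.6.1 and GRCm38 are named in the submitters' processing notes, and the use of strand is not given in the sources used here. The deposited table gives raw read counts and the authors' FPKM (counts per kilobase of the deposited gene length and library total). It also holds a mean normalized count per gene, a signal that the authors computed with DESeq2 size factors. The authors' fold changes and p-values were not used.

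Library totals were recovered from counts, FPKM and lengths to within 36 reads. Counts were tested with edgeR 4.0.16 (quasi-likelihood, R 4.3.3) over 109 genes, with Benjamini-Hochberg adjustment and no filter. Standard errors were taken as |log2 fold change|/√F. The fit was run on simulated counts in which only part of the genes were changed, by 1.5 on the log2 scale in either direction. In the table every gene was selected as changed, so the simulation does not measure the error rate here. Ratios used 0.5 added reads. Precision is limited by reads, 24 to 146 per library on average for the 5 genes.

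Alternatives were TMM, other size factors, DESeq2 1.42.0, limma 3.58.1 with 0.1 or 1 added to FPKM, a filter at 50 reads, the replicate block and each library left out. The members, gene lists and markers were chosen with earlier results of these data known. Genes named are the 5, those of the interferon list and of GO terms naming interferon or virus, the 5 most correlated genes, and cell type markers, and 1 gene that this rule names is not reported here. Promoter sequences and starts are RefSeq's (GRCm38.p6), and gene models and transcripts are from GENCODE M21.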

Additional observations from a re-analysis of the deposited data

How the results depend on the processing

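In 12 of 14 alternatives all 5 genes were lower and past the adjusted p-value, and in the 6 fits that left out 1 library the count stayed at 5. With the filter at a mean of 50 reads the count was 3, since Ifit3b and Ifi205 have fewer reads and were not tested. With median-of-ratios size factors over the table it was 4, since Ifit3b missed the threshold at a log2 fold change of -0.53. Those factors centre a set of genes that are mostly lower, which moved the median of all genes by 0.98, and TMM over the table moved it by 0.43. Limma on log2(FPKM + 1), which used no such factors, moved it by 0.54, against 0.0423 with 0.1 added. Of 70 values listed under the genes, 69 kept the direction and the side of the threshold. These include the unplanned fit of the summed reads of Ifit3 and Ifit3b, which is entered under both genes. Leaving out 1 library gave log2 fold changes of -1.72 to -1.31 for Isg15, -1.60 to -1.33 for Ifit3, -1.66 to -1.38 for Ifit3b, -1.72 to -1.35 for Ifi44 and -2.22 to -1.54 for Ifi205. The replicate block kept the count at 5, with a median of -1.50 for the 5 genes and 45 higher and 64 lower genes as without it. The labels do not tie equal replicate numbers together, so the pairing was not used. The deviations of equally numbered libraries correlated over the 109 genes at 0.0916, 0.246 and 0.0801, and unequal numbers were not compared. The mean deviation of the 5 genes was 0.22, -0.334 and 0.114 in control replicates 1 to 3. In mogrol replicates 1 to 3 it was 0.136, -0.316 and 0.179. Whether equal numbers mark a shared origin cannot be told. All 80 values of the ratios between genes moved by less than the larger of the 2 groups' SDs, although without mogrol replicate 2 the differences against Ifi205 went from 0.492 to 0.553 down to 0.0485 to 0.163, and without mogrol replicate 1 that of Ifit3b to Ifi44 went from 0.0553 to 0.228. Of the 5 genes most like the interferon-stimulated genes, 3 recurred with log2(RPM + 1) and 1 to 3 with a library left out. Low counts limit Ifi205 most, with 4 reads in 1 library.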
